A study of Homo sapiens with 8 samples.

Results

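Transcription of the enzymes that carry glucose carbon beyond its first phosphorylation was examined in senescent human fibroblasts. The set held 48 genes of the 27945 in the count table, taken by symbol from a named list: 7 genes of preparatory glycolysis, 6 of payoff glycolysis, 4 of lactate formation and monocarboxylate transport, 5 of the pentose phosphate pathway, 7 of pyruvate entry into the mitochondrion, 10 of the TCA cycle, 6 of the malate-aspartate exchange and malic enzymes, and 3 glycerol enzymes. The assay was fastGRO-seq, in which polymerases of isolated nuclei extend the transcripts they are already making in the presence of a labelled nucleotide for 7 min, so that the captured reads report transcription under way and not the mRNA pool. The cells were IMR90, a fibroblast line from fetal lung, grown at 2% oxygen. There were 4 groups of 2 libraries. The control (WT) cells are labelled as not senescent and with no shRNA. The other 3 groups were senescent and carried shcontrol (a scrambled hairpin), shMETTL3 or shMETTL14. Senescence followed 100 nM 4-hydroxytamoxifen (4-OHT), which switches on an oncogenic H-RAS fused to the estrogen receptor (ER:RAS). The study's methods give day 6 as the harvest for senescence markers and name no day for fastGRO-seq. Each target was hit by 1 hairpin delivered by lentivirus under puromycin selection, so an effect of the target and of its hairpin cannot be told apart. Senescence and the shRNA infection also cannot be told apart between shcontrol and control cells, and whether control cells carried ER:RAS is not given in the sources used here.

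In glycolysis, glucose 6-phosphate is rearranged, split into triose phosphates and oxidised to pyruvate, with ATP gained in the later payoff steps. Pyruvate is either reduced to lactate, which leaves the cell through monocarboxylate transporters, or enters the mitochondrion and feeds the TCA cycle, while the pentose phosphate pathway branches off to make NADPH and ribose. Senescent fibroblasts stop dividing but stay metabolically active. METTL3 and METTL14 form the core of the complex that writes N6-methyladenosine on RNA and are also found on chromatin.

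The libraries held 14897360 to 20306299 counts, of which 86.2% to 92.5% lay in 21 rows of ribosomal RNA, leaving 1513930 to 2048475 counts elsewhere and 8376 to 13869 on the 48 genes. Counts covered whole gene bodies, introns included, on hg19. They did not separate the strands: of 299 genes that had 100 counts or more over all libraries and lay inside a gene of the opposite strand, 0 exceeded the outer gene in any library, although the file header names a strand setting. Of the 48 genes, 35 overlapped no other counted gene and 47 shared under 5% of their span. The exception was PDHA1, which shares 9.26% of its span with MAP3K15. Several glycolytic genes, GAPDH, PGK1, LDHA, PGAM1 and ENO1 among them, have processed pseudogenes, and how reads of such copies were assigned is uncertain. METTL3 had 80, 78, 77 and 47 counts in the control and shcontrol libraries, 16 and 19 with shMETTL3, and 73 and 56 with shMETTL14 (log2 fold change of shMETTL3 against shcontrol -2.04 ± 0.31 SE, adjusted p = 1.8e-05 by edgeR's quasi-likelihood test). METTL14 had 60 and 55 counts in the control libraries, 24 and 28 under shcontrol, 41 and 48 under shMETTL3 and 18 and 14 under shMETTL14. Its difference between shMETTL14 and shcontrol, -0.86 ± 0.34 on the log2 scale, did not pass the threshold (adjusted p = 0.076 by edgeR).

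All 12 fibroblast markers had counts, with at least 100 in every library for 7 of them, and their summed share of the counts outside ribosomal RNA ranged from 1.93% to 2.07% in control, 1.24% to 1.36% in shcontrol, 1.32% to 1.62% in shMETTL3 and 0.876% to 1.03% in shMETTL14 libraries. Of the 11 tested, 8 were lower and 1 higher in shcontrol than in control cells, 2 lower and 2 higher with shMETTL3 than with shcontrol, and 8 lower with shMETTL14. The markers of other cell types stayed low: the 9 epithelial markers summed to 0.00117% to 0.00485%, with 6 at 3 counts or fewer in every library and 2 at 0 throughout, the 6 endothelial markers to 0.00097% to 0.00699%, with 3 at 3 counts or fewer, and the 7 leukocyte markers to 0.000966% to 0.00449%, with 3 at 3 counts or fewer and 2 at 0. The 2 epithelial markers tested were higher with shMETTL14 than with shMETTL3. CD68, the one leukocyte marker tested, was higher by 2.05 in shcontrol than in control and lower by 0.84 with shMETTL3 than with shcontrol, and TEK, the one endothelial marker tested, was lower by 1.04 in shcontrol and by a further 1.28 with shMETTL14. Of 6 genes that mark senescence or cell cycling, 2 were higher and 3 lower in shcontrol than in control, 1 higher and 3 lower with shMETTL3 than with shcontrol (median -2.47), and 1 higher and 4 lower with shMETTL14 (median -2.51). The part of these shifts in the results below was not tested. In bulk nuclei, fewer cells of a type and less RNA per cell cannot be told apart.

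As a whole, the 48 genes took 0.551% and 0.527% of the counts outside ribosomal RNA in the control libraries, 0.674% and 0.672% under shcontrol, 0.48% and 0.409% under shMETTL3 and 0.841% and 0.739% under shMETTL14. The 4 groups did not overlap, and shMETTL14 libraries were highest and shMETTL3 libraries lowest. Without glycerol kinase (GK), which alone supplied 1028 and 941 of the 10204 and 10600 counts in the shcontrol libraries, the order was the same, at 0.546% and 0.521% in control, 0.606% and 0.612% under shcontrol, 0.457% and 0.386% under shMETTL3 and 0.832% and 0.725% under shMETTL14. The role groups did not all share it. The 13 genes from GPI to PKM held 0.318% and 0.29% of these counts in control, 0.378% and 0.377% in shcontrol, 0.277% and 0.221% in shMETTL3 and 0.566% and 0.478% in shMETTL14 libraries. The 10 TCA cycle genes held 0.0709% and 0.073% in control but 0.0589% and 0.0644% with shcontrol, then 0.0513% and 0.0439% with shMETTL3 and 0.0915% and 0.0771% with shMETTL14. This TCA group counts IDH1, whose enzyme is cytosolic. The lower sum of the group in shcontrol came from IDH1 and SUCLG2. The other 8 genes together held 0.0393% and 0.0409% in control and 0.0407% and 0.0423% under shcontrol. They held 0.0312% and 0.0247% under shMETTL3 and 0.063% and 0.0516% under shMETTL14. Both sums were highest in the shMETTL14 libraries.

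**Figure D1:**
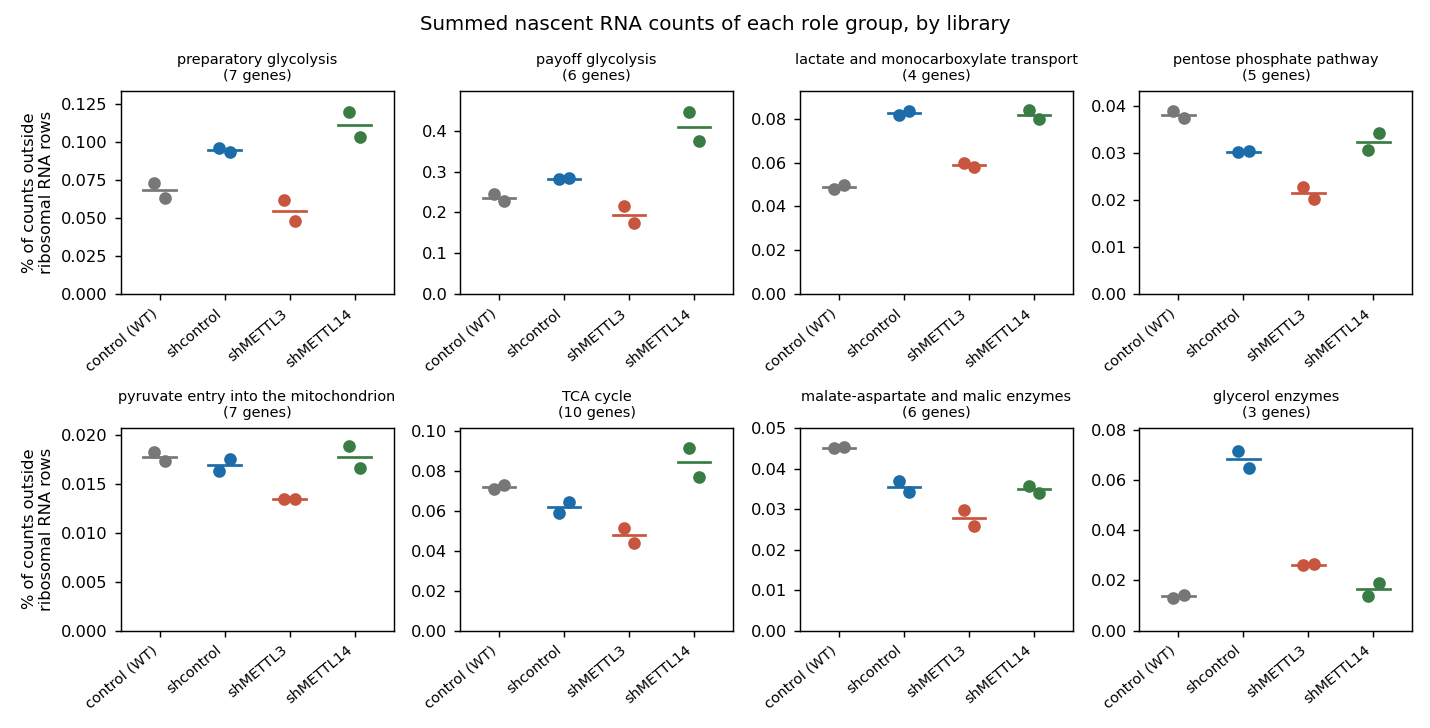
Summed counts of each role group as a percentage of the counts outside ribosomal RNA rows (y axis, from 0), with 1 point per library and a line at the mean of the 2 libraries of a group. Payoff glycolysis rose from 0.244% and 0.227% in control to 0.447% and 0.375% in shMETTL14 libraries, whereas the glycerol enzymes peaked with shcontrol at 0.0717% and 0.0649%.

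Each gene was then compared between groups with edgeR's quasi-likelihood test, fitted once over the 12844 genes that passed a filter on low counts and called at a Benjamini-Hochberg adjusted p below 0.05. Of the 48 genes, 47 passed the filter. The one left out was PDK4, a kinase that switches off pyruvate dehydrogenase, with 0 and 1 counts in control, 2 and 4 in shcontrol and 0 in each of the other 4 libraries. In shcontrol against control cells, 11 of the 47 rose and 6 fell, against 13.3% higher, 13.3% lower and 26.6% called in all among the genes tested. The median log2 fold change of the 47 was 0.20, against -0.03 over all genes tested. With shMETTL3 against shcontrol, 13 of the 47 fell and 0 rose (background 11.2% lower, 12.2% higher, 23.4% in all), and the medians were -0.40 and -0.03. No gene of the 47 was higher with shMETTL3 at an unadjusted p below 0.05, and DESeq2 called 0 as well. With shMETTL14 against shcontrol, 5 rose and 5 fell (background 9.15% higher, 12% lower, 21.2% in all), shares near the background, with medians of 0.07 and 0.00. Between the knockdowns, 22 were higher and 2 lower with shMETTL14 than with shMETTL3 (background 16.5% higher, 18.7% lower, 35.2% in all), with medians of 0.45 and 0.01. These comparisons share libraries and are not independent of each other.

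All changes are relative to the bulk of genes in the library, as TMM sets it. With library size alone, the median over all genes tested moved to -0.53 in shcontrol against control and 0.58 with shMETTL3. It moved to 0.35 with shMETTL14 and -0.25 between the knockdowns. The counts of higher and lower genes among the 47 became 5 and 11, 6 and 2, 16 and 1, and 14 and 5. Over all 12844 genes tested, the counts were 752 and 5007, 5285 and 353, 3163 and 710, and 1177 and 3486. Another scaling moves all genes of a comparison alike, so it leaves the median of the 47 relative to all genes (0.23, -0.36, 0.07 and 0.44) where it was and does not test it.

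The counts depended in part on single libraries. Replicates differed by a mean chi-square of 1.72 per gene outside ribosomal RNA in control, 1.56 in shcontrol, 5.26 in shMETTL3 and 2.52 in shMETTL14, so the shMETTL3 pair was the least alike. The 6 falls in shcontrol were 3 without control replicate 1 and 2 without shcontrol replicate 1. The 13 falls with shMETTL3 were 8 without either of the shcontrol libraries and 20 without shMETTL3 replicate 1. The 5 rises with shMETTL14 were 0 without shcontrol replicate 1 or without shMETTL14 replicate 1, 1 without shcontrol replicate 2 and 8 without either shMETTL3 library, and its 5 falls were 1 without either shcontrol library and 3 without either shMETTL14 library. The 22 genes higher with shMETTL14 than with shMETTL3 ranged from 16 to 22 with any 1 library left out, and the 2 lower genes were 1 without shMETTL14 replicate 1.

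**Figure D2:**
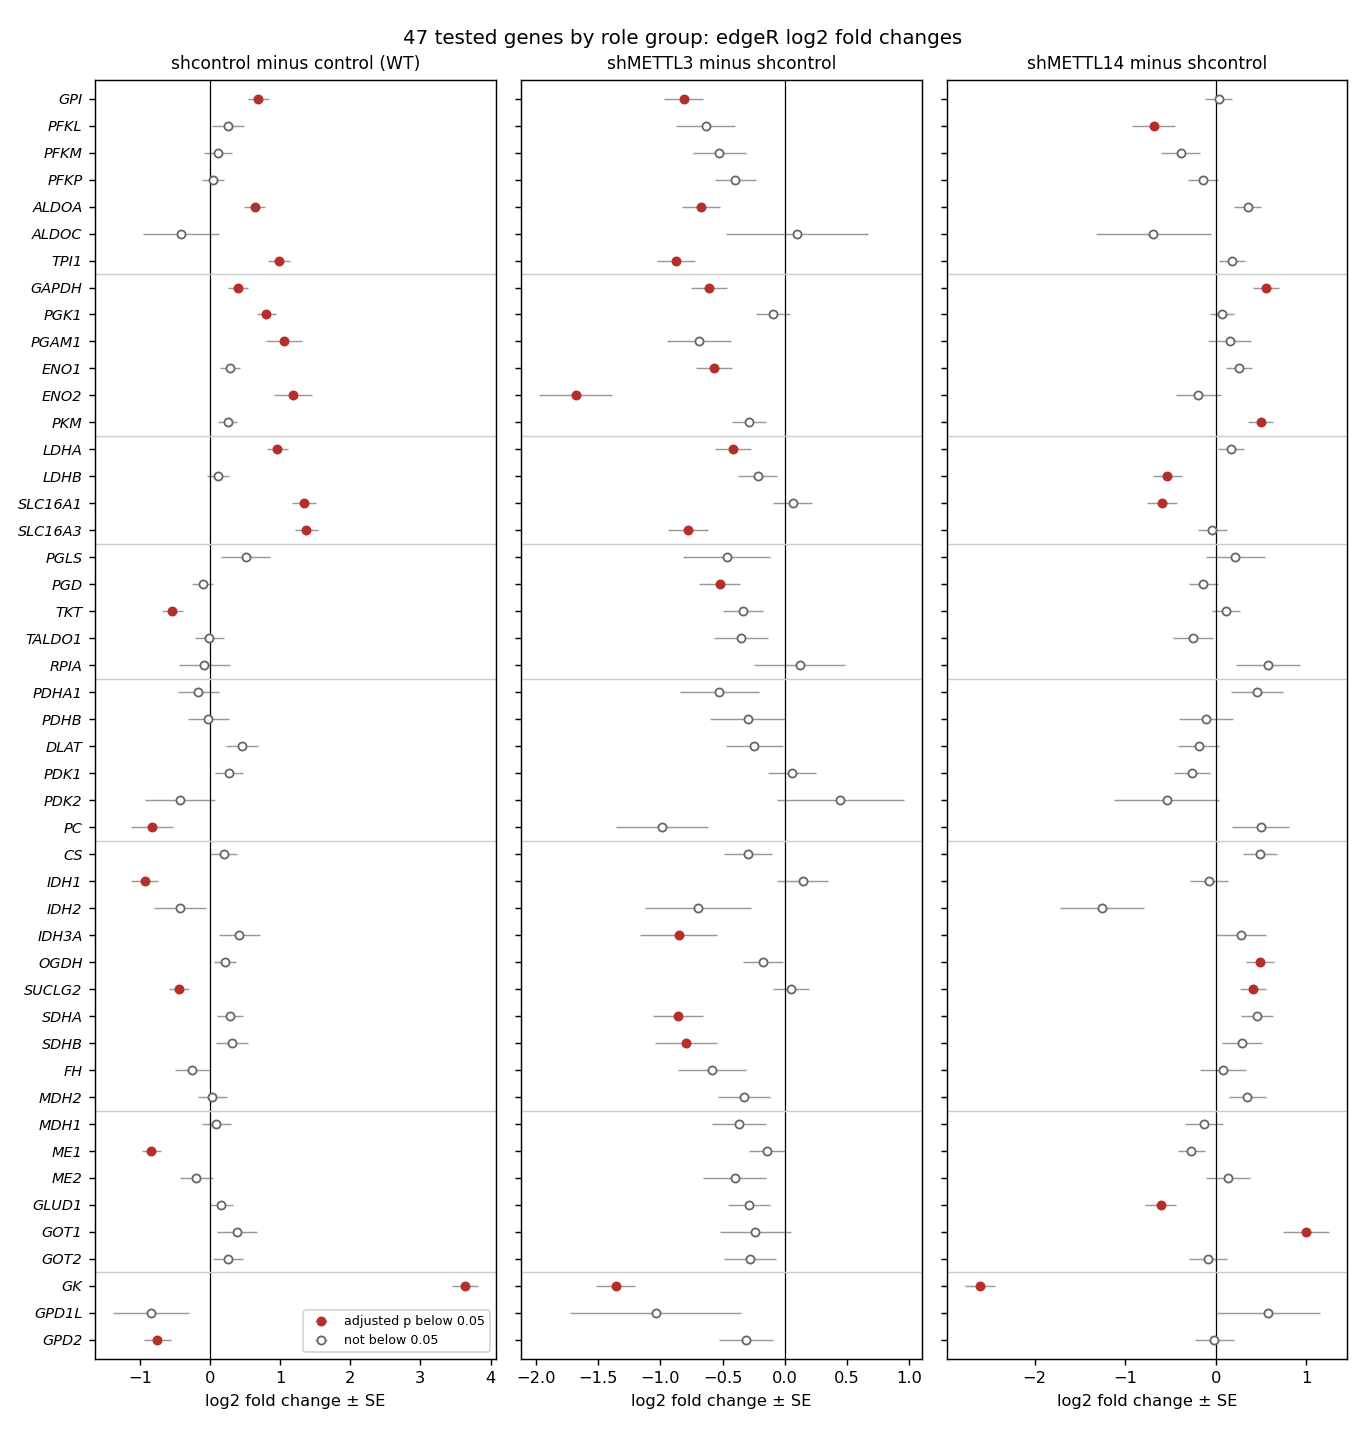
Log2 fold changes (x axis, points, with bars for ± SE) of the 47 tested genes in the 3 comparisons, grouped by role from glycolysis at the top to the glycerol enzymes at the bottom. Filled points passed an adjusted p of 0.05 in edgeR: 11 higher and 6 lower in shcontrol against control, 13 lower with shMETTL3, and 5 higher and 5 lower with shMETTL14.

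In preparatory glycolysis, 3 of 7 genes rose in shcontrol against control cells and none fell. With shMETTL3 against shcontrol, 3 of 7 fell. Over all genes tested, 13.3% rose and 13.3% fell in shcontrol, and 11.2% fell with shMETTL3. TPI1, which interconverts the triose phosphates (hg19 chr12:6976694-6980110, plus strand), had 184 and 175 normalised counts in control, 361 and 349.5 in shcontrol, 224 and 164 in shMETTL3 and 439 and 365 in shMETTL14 libraries (raw counts scaled by TMM to the mean effective library size). Its shcontrol and shMETTL14 libraries lay above all control and shMETTL3 libraries. The log2 fold change was 0.98 ± 0.15 (SE) in shcontrol against control (adjusted p = 1.5e-05), -0.87 ± 0.15 with shMETTL3 against shcontrol (adjusted p = 0.00014) and 0.18 ± 0.15 with shMETTL14 (adjusted p = 0.42, all edgeR). GPI, which opens the pathway by isomerising glucose 6-phosphate, rose by 0.69 ± 0.15 in shcontrol, fell by 0.81 ± 0.16 with shMETTL3 and differed by 0.03 ± 0.15 with shMETTL14 (adjusted p = 0.91, edgeR). Its rise did not pass without shcontrol replicate 1 (adjusted p = 0.066, edgeR). ALDOA, the main aldolase of these cells, rose by 0.63 ± 0.15 in shcontrol (adjusted p = 0.1 without control replicate 2), fell by 0.67 ± 0.15 with shMETTL3 and differed by 0.35 ± 0.15 with shMETTL14 (adjusted p = 0.091, edgeR). The phosphofructokinases, which catalyse the committed step, were not called in shcontrol: PFKL, PFKM and PFKP differed by 0.25, 0.11 and 0.04 from control cells. PFKL had 86.3 and 75.7 normalised counts in shcontrol against 51.0 and 49.5 in shMETTL14 libraries, a fold change of -0.69 ± 0.24 (adjusted p = 0.044, edgeR) whose call was lost without any 1 of 6 libraries (adjusted p up to 0.25). With shMETTL3 it differed by -0.64 ± 0.24 (adjusted p = 0.055). ALDOC, a brain-type aldolase, had 5 to 15 raw counts per library and passed in no comparison.

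In payoff glycolysis, 4 of 6 genes rose in shcontrol and none fell, against 13.3% higher and 13.3% lower over all genes tested. All 6 fold changes were positive, with a median of 0.60 against -0.03 over all genes tested. ENO2, the neuronal-type enolase (hg19 chr12:7023615-7032859, plus strand), had 29.2 and 27.0 normalised counts in control, 70.9 and 56.8 under shcontrol, 22.6 and 17.1 under shMETTL3 and 55.0 and 56.9 under shMETTL14. It was thus highest in shcontrol and shMETTL14 libraries. The shMETTL3 libraries lay below control without overlap, but ENO2 was not called lower with shMETTL3 than in control. Its fold changes were 1.18 ± 0.27 in shcontrol against control (adjusted p = 0.0016) and -1.68 ± 0.29 with shMETTL3 against shcontrol (adjusted p = 0.00012), the largest fall among the 47 genes with shMETTL3, and -0.19 ± 0.25 with shMETTL14 (adjusted p = 0.65, edgeR). ENO1, the common enolase, was not called in shcontrol (0.29 ± 0.14), fell by 0.57 ± 0.14 with shMETTL3 (adjusted p = 0.005, and 0.059 without shcontrol replicate 1 or 0.054 without shMETTL3 replicate 2, edgeR; with library size alone the log2 fold change turned to 0.0375, adjusted p = 0.88) and differed by 0.26 with shMETTL14. PGAM1, the phosphoglycerate mutase, rose by 1.05 ± 0.26 in shcontrol (adjusted p = 0.0032, and 0.051 without shcontrol replicate 2) and differed by -0.69 ± 0.26 with shMETTL3 (adjusted p = 0.052) and 0.16 with shMETTL14. PGK1, which makes the first ATP of the pathway, rose by 0.80 ± 0.14 in shcontrol (adjusted p = 7e-05) and was not called with either hairpin, with differences of -0.10 ± 0.14 with shMETTL3 and 0.07 ± 0.14 with shMETTL14. Its 6 senescent libraries, at 347 to 429 normalised counts, all lay above the control libraries at 242 and 214.

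GAPDH and PKM, which had the highest normalised counts of the 48 genes, rose with shMETTL14. GAPDH, which oxidises glyceraldehyde 3-phosphate (hg19 chr12:6643684-6647541, plus strand), had 1381 and 1352 normalised counts in control, 1809 and 1789 under shcontrol, 1348 and 1011 under shMETTL3 and 2879 and 2415 under shMETTL14. The shMETTL14 libraries were highest. The control and shMETTL3 groups nearly met, at 1352 and 1348, and no payoff gene was called lower with shMETTL3 than in control. It rose by 0.40 ± 0.15 in shcontrol (adjusted p = 0.044, whereas the log2 fold change was -0.10 with library size alone, adjusted p = 0.61), fell by 0.61 ± 0.15 with shMETTL3 (adjusted p = 0.0032, and adjusted p = 0.98 with library size alone and 0.053 with an offset for gene length) and rose by 0.56 ± 0.15 with shMETTL14 (adjusted p = 0.0065, edgeR). The first of these calls was lost without any 1 of the control and shcontrol libraries (adjusted p 0.16 to 0.22), and the last without either shcontrol library or shMETTL14 replicate 1 (adjusted p 0.076 to 0.11). PKM, the pyruvate kinase of most tissues, had 1621 and 1477 normalised counts in control, 1863 and 1822 in shcontrol, 1564 and 1459 in shMETTL3 and 2832 and 2374 in shMETTL14 libraries. It rose by 0.50 ± 0.14 with shMETTL14 (adjusted p = 0.0092, edgeR, and 0.086 to 0.15 without either shcontrol library or shMETTL14 replicate 1), and differed by 0.25 ± 0.14 in shcontrol and -0.29 ± 0.14 with shMETTL3, neither past the threshold.

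**Figure D3:**
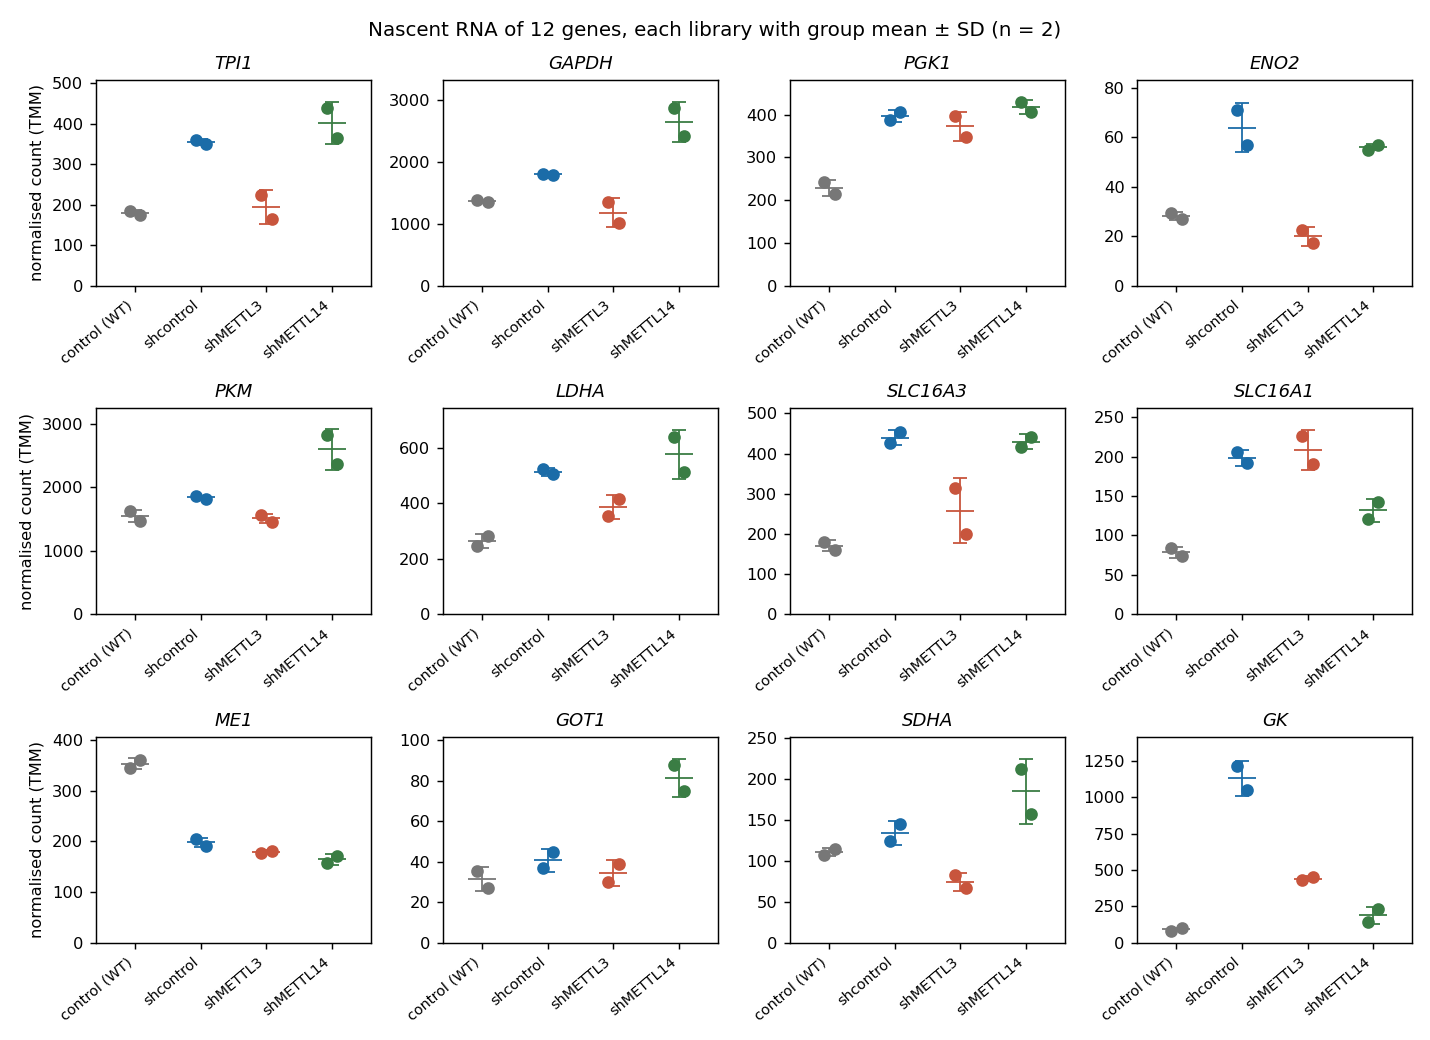
Normalised counts (y axis, TMM, from 0) of 12 genes in each library (points), with the group mean ± SD (n = 2 libraries). TPI1 and ENO2 were high with shcontrol and shMETTL14, GAPDH and PKM were highest with shMETTL14, GOT1 was high in the shMETTL14 libraries alone, ME1 was lower in all 6 senescent libraries than in control, and GK fell from 1215 and 1047 with shcontrol to 144 and 229.6 with shMETTL14.

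In lactate formation and export, 3 of 4 genes rose in shcontrol and none fell, against 13.3% higher and 13.3% lower over all genes tested. The median of the 4 was 1.15. LDHA, the lactate dehydrogenase subunit that favours lactate formation (hg19 chr11:18415937-18429765, plus strand), had 246 and 281 normalised counts in control, 521 and 503 under shcontrol, 354 and 415 under shMETTL3 and 638 and 513 under shMETTL14. Every senescent library exceeded both control libraries. It rose by 0.96 ± 0.15 in shcontrol (adjusted p = 1.1e-05), fell by 0.41 ± 0.14 with shMETTL3 (adjusted p = 0.038) and differed by 0.17 ± 0.14 with shMETTL14 (edgeR). The fall was lost without any 1 of 5 libraries (adjusted p 0.051 to 0.18), and with library size alone the log2 fold change turned to 0.21 (adjusted p = 0.35). SLC16A3 (MCT4), the lactate exporter of glycolytic cells, had 179.8 and 160.2 normalised counts in control, 427 and 453 under shcontrol, 315 and 200.3 under shMETTL3 and 417 and 442 under shMETTL14. It rose by 1.37 ± 0.17 in shcontrol (adjusted p = 2.9e-07), fell by 0.78 ± 0.16 with shMETTL3 (adjusted p = 0.0008) and differed by -0.03 ± 0.16 with shMETTL14 (adjusted p = 0.91, edgeR). SLC16A1 (MCT1), a transporter of lactate and pyruvate in either direction, went the other way between the hairpins. It had 83.2 and 73.2 normalised counts in control, 206 and 191 under shcontrol, 226 and 189.9 under shMETTL3 and 121 and 142 under shMETTL14. The log2 fold changes were 1.34 ± 0.17 in shcontrol (adjusted p = 8.2e-07), 0.06 ± 0.16 with shMETTL3 (adjusted p = 0.81) and -0.59 ± 0.17 with shMETTL14 (adjusted p = 0.011, edgeR). Without either shcontrol library or shMETTL14 replicate 1, the last had adjusted p-values of 0.053 to 0.14. LDHB, the subunit that favours lactate use, was the one gene of the 4 not called in shcontrol (0.11 ± 0.15), and it fell by 0.53 ± 0.16 with shMETTL14 (adjusted p = 0.017, and 0.083 to 0.15 without either shcontrol library or shMETTL14 replicate 1).

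GK, which phosphorylates glycerol so that it can enter glycolysis or lipid synthesis (hg19 chrX:30671477-30749577, plus strand), had the largest change of the 47 genes both in shcontrol against control and with shMETTL14 against shcontrol. It had 93 and 114 raw counts in control, 1028 and 941 under shcontrol, 417 and 477 under shMETTL3 and 144 and 218 under shMETTL14. The normalised counts were 82.4 and 99.3, 1215 and 1047, 428 and 453, and 144 and 229.6, so the 4 groups stood apart in the order shcontrol, shMETTL3, shMETTL14, control. GK rose by 3.64 ± 0.18 on the log2 scale in shcontrol (adjusted p = 6.3e-15), fell by 1.36 ± 0.16 with shMETTL3 (adjusted p = 3.5e-07) and fell by 2.60 ± 0.17 with shMETTL14 (adjusted p = 1.4e-11), and was lower by 1.24 ± 0.17 with shMETTL14 than with shMETTL3 (adjusted p = 2.6e-06, edgeR). On the linear scale its mean was 12.4-fold the control mean with shcontrol, 4.85-fold with shMETTL3 and 2.06-fold with shMETTL14, which is 33.6% and 9.22% of the rise in shcontrol. Taken singly, the shMETTL3 libraries gave 32.4% and 34.8%, and the shMETTL14 libraries 5.10% and 13.3%. HK2, the hexokinase that precedes these genes and stands outside the set, changed by 3.46, -1.11 and -1.57 in the 3 comparisons, and by -0.46 between the knockdowns (adjusted p = 0.021, edgeR).

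Of the glycerol 3-phosphate dehydrogenases, 1 of 2 passed in shcontrol. GPD2, the mitochondrial enzyme of the glycerol phosphate shuttle, had 113 and 121 normalised counts in control and 55.1 to 74.6 in the 6 senescent libraries. It fell by 0.75 ± 0.19 in shcontrol (adjusted p = 0.0045, and 0.051 without control replicate 2 or 0.1 without shcontrol replicate 1) and differed by -0.31 with shMETTL3 and -0.01 with shMETTL14, neither past the threshold. GPD1L, a cytosolic relative of GPD1, had only 3 to 24 raw counts per library, differed by -0.84 ± 0.54 in shcontrol (adjusted p = 0.28, edgeR) and was called higher with shMETTL14 than with shMETTL3 (1.62 ± 0.63, adjusted p = 0.048), a call lost without any 1 of 5 libraries (adjusted p up to 0.4, edgeR).

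In the pentose phosphate pathway, 1 of 5 genes fell in shcontrol and none rose, near the 13.3% lower over all genes tested, and the median was -0.08. TKT, the transketolase that links the pathway back to glycolysis, had 277 and 267 normalised counts in control, 195 and 179 under shcontrol, 166 and 131 under shMETTL3 and 189.9 and 216 under shMETTL14, so every senescent library lay below control. It fell by 0.54 ± 0.15 in shcontrol (adjusted p = 0.0078, and 0.053 to 0.12 without control replicate 1 or either shcontrol library). PGD, the second NADPH-forming step, fell with shMETTL3 by 0.52 ± 0.16 (adjusted p = 0.022, and 0.081 to 0.14 without either shcontrol library or shMETTL3 replicate 1; with library size alone the log2 fold change turned to 0.10, adjusted p = 0.72) and differed by -0.11 in shcontrol and -0.14 with shMETTL14. PGLS, TALDO1 and RPIA, the lactonase, transaldolase and ribose 5-phosphate isomerase, passed in none of the 6 comparisons.

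Of the 6 tested genes of pyruvate entry, 1 fell in shcontrol (13.3% of all genes tested did) and none was called with either hairpin against shcontrol. PC, pyruvate carboxylase, which refills the TCA cycle with oxaloacetate, had 74 and 54 raw counts in control, 24 and 31 under shcontrol, 21 and 11 under shMETTL3 and 44 and 43 under shMETTL14. Its fall of 0.83 ± 0.30 in shcontrol (adjusted p = 0.04, edgeR) was lost without any 1 of 5 libraries (adjusted p up to 0.34). It differed by -0.99 ± 0.37 with shMETTL3 (adjusted p = 0.054) and by 0.50 ± 0.32 with shMETTL14 against shcontrol. PDHB and DLAT, subunits of the pyruvate dehydrogenase complex, and its kinases PDK1 and PDK2 were called in no comparison. PDHA1, the catalytic subunit, was called between the knockdowns alone.

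Of the 10 genes of the TCA group, 2 fell in shcontrol, the cytosolic IDH1 and SUCLG2, and none rose. DESeq2 did not call the SUCLG2 fall. The share of falls was near the 13.3% over all genes tested. Of the 10 fold changes 6 were positive, and the median was 0.12. IDH1, the cytosolic NADP isocitrate dehydrogenase, had 137 and 145 normalised counts in control and 65.0 to 88.3 in all 6 senescent libraries. It fell by 0.94 ± 0.19 in shcontrol (adjusted p = 0.00045) and then differed by 0.15 ± 0.21 with shMETTL3 and -0.07 ± 0.21 with shMETTL14 (edgeR). SUCLG2, a subunit of the GTP-forming succinyl-CoA ligase, fell by 0.44 ± 0.14 in shcontrol (adjusted p = 0.02, and 0.097 to 0.29 without either control library or shcontrol replicate 1) and rose by 0.41 ± 0.14 with shMETTL14 (adjusted p = 0.039), a call lost without any 1 of 5 libraries (adjusted p up to 0.36).

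Of the 10 TCA genes, 3 fell with shMETTL3 (11.2% of all genes tested did). SDHA, the catalytic subunit of succinate dehydrogenase (hg19 chr5:218339-257197, plus strand), had 107 and 114 normalised counts in control, 124 and 145 under shcontrol, 82.1 and 66.5 under shMETTL3 and 213 and 157 under shMETTL14. It fell by 0.86 ± 0.20 with shMETTL3 (adjusted p = 0.0022, and 0.057 without shcontrol replicate 2) and differed by 0.46 ± 0.18 with shMETTL14 (adjusted p = 0.067, edgeR). SDHB, the iron-sulfur subunit, fell by 0.79 ± 0.25 with shMETTL3 (adjusted p = 0.02, and 0.06 to 0.13 without either shcontrol library or shMETTL3 replicate 2), a call that DESeq2 and library size alone did not give. IDH3A, of the NAD isocitrate dehydrogenase, fell by 0.85 ± 0.31 (adjusted p = 0.045), a call lost without any 1 of 5 libraries (adjusted p up to 0.33). OGDH, of the 2-oxoglutarate dehydrogenase complex, rose with shMETTL14, from 167 and 149 normalised counts in shcontrol to 233 and 212 (0.49 ± 0.16, adjusted p = 0.024, and 0.078 to 0.24 without either shcontrol library or shMETTL14 replicate 1). CS, IDH2, FH and MDH2 (citrate synthase, the mitochondrial NADP isocitrate dehydrogenase, fumarase and mitochondrial malate dehydrogenase) passed in none of these 3 comparisons, with fold changes of -1.25 (IDH2 with shMETTL14, adjusted p = 0.054) to 0.49.

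Among the malic enzymes and the malate-aspartate exchange, ME1 and GOT1 stood out. ME1, the cytosolic malic enzyme that makes NADPH and pyruvate (hg19 chr6:83920111-84140938, minus strand), had 390 and 415 raw counts in control, 173 and 172 under shcontrol, 173 and 191 under shMETTL3 and 157 and 163 under shMETTL14. It fell by 0.84 ± 0.14 in shcontrol (adjusted p = 3.4e-05), with differences of -0.14 ± 0.15 with shMETTL3 and -0.27 ± 0.15 with shMETTL14 that did not pass. GOT1, the cytosolic aspartate aminotransferase (hg19 chr10:101156628-101190530, minus strand), had 35.4 and 27.0 normalised counts in control, 36.6 and 44.5 under shcontrol, 29.8 and 38.9 under shMETTL3 and 88.0 and 74.8 under shMETTL14. The shMETTL14 libraries stood above all 6 others, and the rise over shcontrol was 1.00 ± 0.26 (adjusted p = 0.0056, and 0.086 without shcontrol replicate 1 or 0.11 without shMETTL14 replicate 1, edgeR). GLUD1, glutamate dehydrogenase, fell by 0.61 ± 0.17 with shMETTL14 (adjusted p = 0.013, and 0.063 to 0.12 without either shcontrol library or shMETTL14 replicate 2). MDH1, ME2 and GOT2, the cytosolic malate dehydrogenase, the mitochondrial malic enzyme and the mitochondrial aminotransferase, passed in none of these 3 comparisons.

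Set directly against each other, the knockdowns differed in 24 of the 47 genes, against 35.2% of all genes tested. Higher with shMETTL14, as were 16.5% of all genes tested, were 3 of 7 genes in preparatory glycolysis, 5 of 6 in payoff glycolysis, 2 of 6 in pyruvate entry and 7 of 10 in the TCA cycle, with medians of 0.26, 0.84, 0.12 and 0.68. In glycolysis the differences were 1.17 ± 0.15 for GAPDH (adjusted p = 7.1e-07), 1.06 ± 0.15 for TPI1, 1.03 ± 0.15 for ALDOA, 1.50 ± 0.30 for ENO2, 0.85 for GPI and PGAM1, 0.83 for ENO1 and 0.78 for PKM. PGK1 differed by 0.17 ± 0.14 (adjusted p = 0.36, edgeR). In the TCA cycle they were 1.32 ± 0.19 for SDHA (adjusted p = 4.8e-06), 1.13 for IDH3A, 1.08 for SDHB, 0.79 for CS, 0.68 for MDH2, 0.67 for OGDH and 0.36 for SUCLG2, and PC (1.49), PDHA1 (0.98), GOT1 (1.24), SLC16A3 (0.74), LDHA (0.58), TKT (0.45) and GPD1L (1.62) were higher too. GK and SLC16A1 were the 2 genes lower with shMETTL14, by 1.24 and 0.66. In every library pair of the 2 groups, GAPDH, TPI1, SDHA and GOT1 were higher in the shMETTL14 library, as the normalised counts above show. Of the 24 calls, 15 were kept without any 1 library. PGAM1, LDHA, SLC16A1, TKT, PDHA1, IDH3A, SUCLG2, MDH2 and GPD1L lost theirs without at least 1 library of the shMETTL3 or shMETTL14 group (adjusted p 0.057 to 0.4). Genes called higher with shMETTL14 were short across the table, with a median length of 18949.5 bases against 33257 over all genes tested and 86541 for those called lower, and the 22 genes had a median of 24928.5 bases. With an offset for gene length in each library, 23 genes were higher and 3 lower. In shcontrol against control, the 11 higher genes had a median of 13829 bases and the 6 lower 130400. All genes so called had 34997 and 71246. With the offset, the glycolysis median went from 0.40 to 0.25 in shcontrol and from -0.61 to -0.47 with shMETTL3 against shcontrol. GAPDH, PC and SUCLG2 then lost their calls in shcontrol, and GAPDH, LDHA, PGD and IDH3A theirs with shMETTL3.

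**Figure D4:**
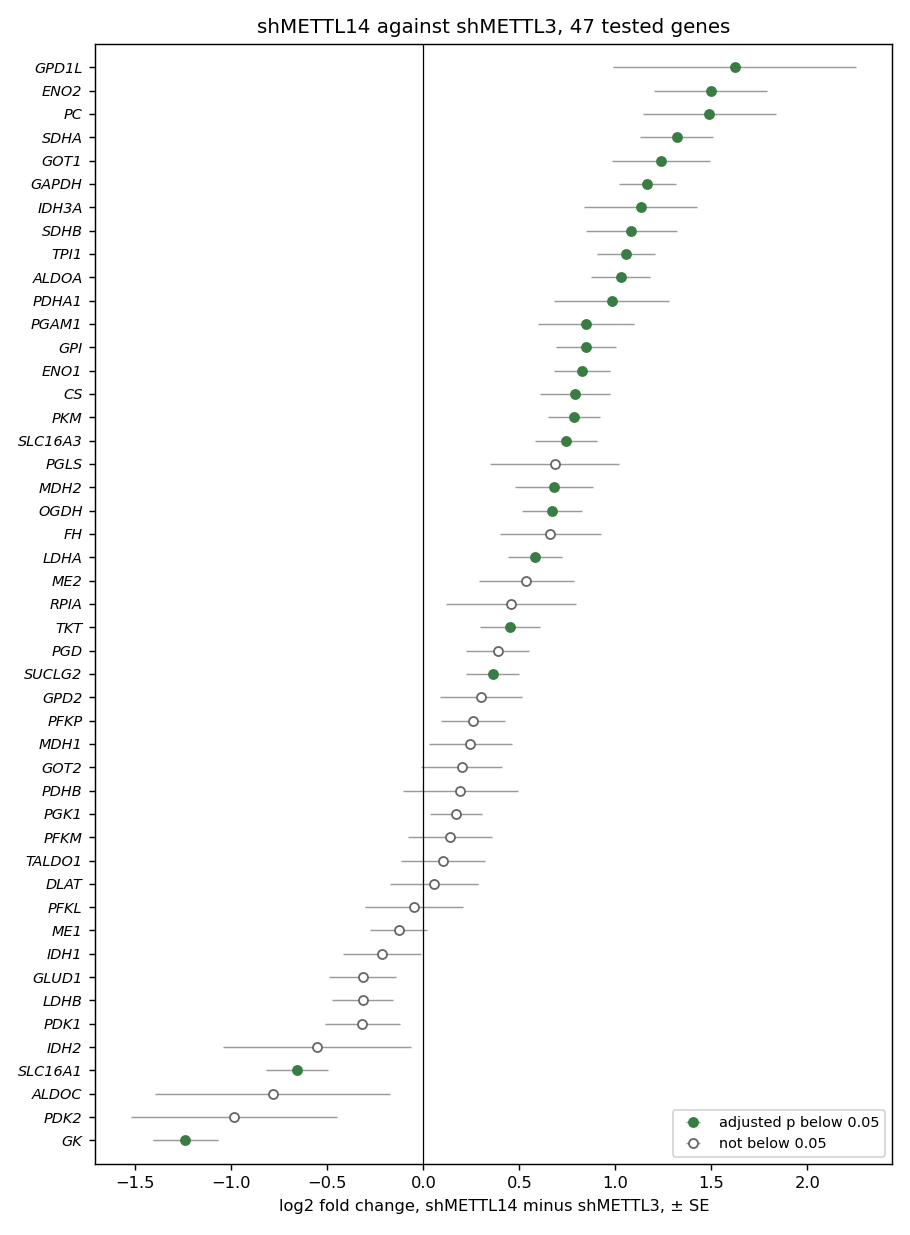
Log2 fold change of shMETTL14 against shMETTL3 (x axis, points, bars for ± SE) for the 47 tested genes, sorted by value, with filled points for adjusted p below 0.05 in edgeR. The points run from -1.24 for GK to 1.62 for GPD1L, and 22 filled points lie to the right of 0 and 2 to the left.

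Relative to control cells, the 2 knockdown groups are given side by side, with the caution that both are set against the same control libraries. With shMETTL3, 5 of the 47 genes were higher and 12 lower than in control (background 20.1% higher, 20.1% lower, 40.2% in all), with a median of -0.28 against -0.05 over all genes. Without shMETTL3 replicate 2 the medians were -0.09 and -0.06, so most of that shift rested on 1 library. The 5 were GK (2.28), SLC16A1 (1.41), PGK1 (0.71), SLC16A3 (0.60) and LDHA (0.54). SLC16A3 lost its call without control replicate 2 or shMETTL3 replicate 1 (adjusted p 0.079 and 0.25, edgeR) and LDHA without control replicate 1 (adjusted p = 0.091). The 12 lower genes included 5 of the TCA group (the cytosolic IDH1, and IDH2, SUCLG2, SDHA and FH, -0.39 to -1.12). The others were PC at -1.82, GPD1L at -1.88, GPD2 at -1.07, ME1 at -0.98, ME2 at -0.60, TKT at -0.88 and PGD at -0.63. Without control replicate 1 or control replicate 2, 6 and 7 were lower. PGD, IDH2, SUCLG2, SDHA, FH and GPD1L lost their calls without at least 1 control or shMETTL3 library (adjusted p 0.054 to 0.2, edgeR), and ME2 lost its call without any 1 of the 8 libraries (adjusted p 0.059 to 0.27), with DESeq2 and under 6 other alternatives. With shMETTL14, 19 were higher and 7 lower (background 19.7% higher, 20.5% lower, 40.2% in all), with a median of 0.26 against 0.00. The median was 0.14 without shMETTL14 replicate 1 and 0.17 without control replicate 2. All 6 payoff genes were among the 19 (0.54 for ENO1 to 1.21 for PGAM1), with TPI1 at 1.16, ALDOA at 0.99, GPI at 0.72, SLC16A3 at 1.34, LDHA at 1.13, SLC16A1 at 0.75, GOT1 at 1.38, GK at 1.04 and 5 TCA genes, SDHA, OGDH, IDH3A, CS and SDHB, at 0.60 to 0.74. The 7 lower genes were IDH2 (-1.68), ME1 (-1.11), IDH1 (-1.01), GPD2 (-0.76), GLUD1 (-0.45), TKT (-0.42) and LDHB (-0.42). The 7 were 4 without either control library or either shMETTL14 library. Among the 19, ENO1, CS, IDH3A, SDHA and SDHB lost their calls without at least 1 control or shMETTL14 library (adjusted p up to 0.33, edgeR).

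Within families of isozymes, levels were compared per gene length, as RPKM, the count divided by the length of the gene body and the effective library size. LDHA made up 59.0% and 59.4% of LDHA plus LDHB in control, 73.0% and 71.7% under shcontrol, 72.1% and 67.5% under shMETTL3 and 83.3% and 78.2% under shMETTL14. The senescent libraries were all above control and the shMETTL14 libraries above the rest. ENO2 made up 7.12% and 7.25% of the enolases in control, 13.6% and 11.5% under shcontrol, 6.32% and 6.09% under shMETTL3 and 8.68% and 10.6% under shMETTL14. SLC16A1 was 15.2% and 19.1% of the SLC16A1 and SLC16A3 pair with shMETTL3, against 6.75% to 10.7% in the other 6 libraries. GOT1 was 43.2% and 41.0% of the aminotransferases with shMETTL14, against 20.7% to 32.3% elsewhere. ME1 fell from 66.8% and 63.6% of the malic enzymes in control to 45.6% to 60.0% in senescent libraries, and IDH1 was 80.0% of IDH1 and IDH2 in both control libraries and 73.3% and 74.1% with shcontrol, against 77.3% and 89.2% with shMETTL3 and 80.0% and 93.4% with shMETTL14. With 2 libraries against 2, an exact permutation test of such a share cannot go below p = 0.333 (two-sided), so these shares are given as a description. At the group means GAPDH was the highest of the 48 genes in RPKM, at 19.8 in control, 26.0 with shcontrol, 17.1 with shMETTL3 and 38.3 with shMETTL14, followed by TPI1 at 2.93 to 6.56.

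**Figure D5:**
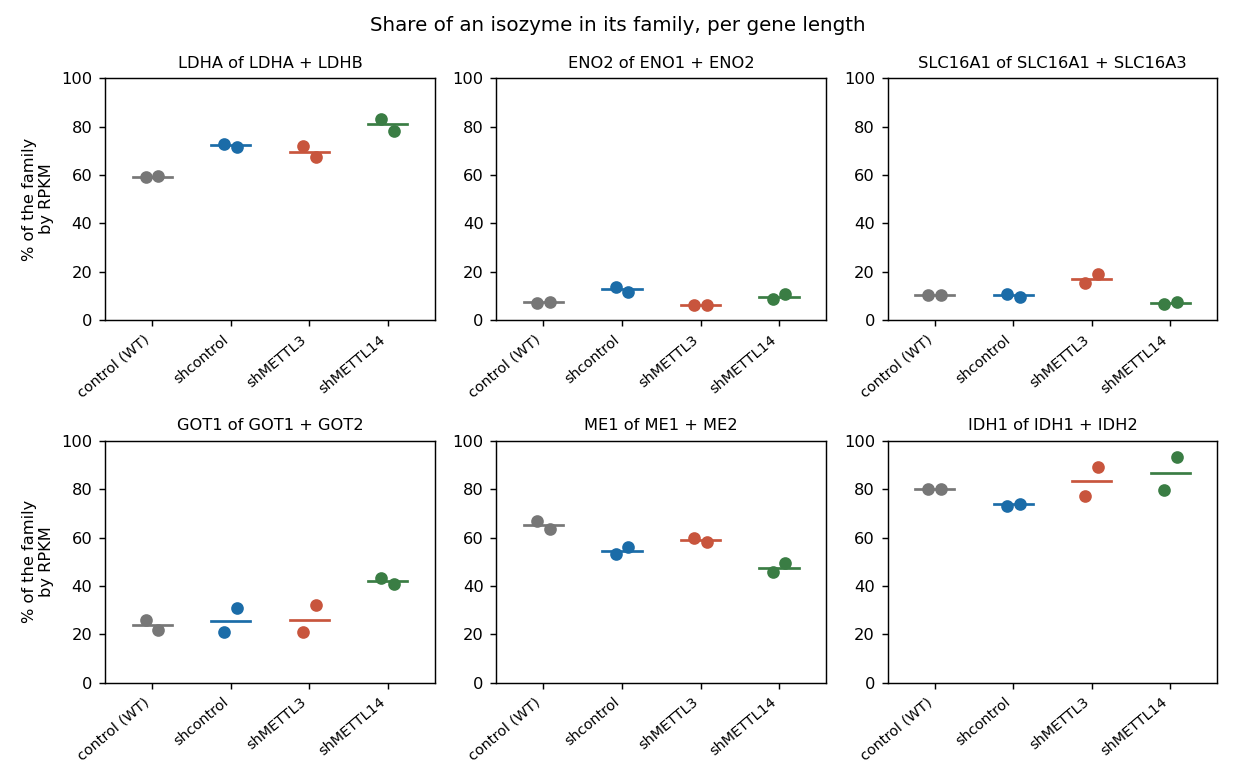
Share of an isozyme in its family by RPKM (y axis, percent from 0 to 100), with 1 point per library and a line at the share computed from the group means. LDHA ran from 59.0% in a control library to 83.3% in a shMETTL14 library, and GOT1 was 41.0% and 43.2% with shMETTL14.

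Lists of genes outside the 48 were counted in the same way. Over all genes tested, 13.3% were higher and 13.3% lower in shcontrol, and 12.2% and 11.2% with shMETTL3. With shMETTL14 these shares were 9.15% and 12%, and between the knockdowns 16.5% and 18.7%. Of 35 tested genes of central carbon metabolism outside the 48 (other subunits, carriers and tissue isozymes among them), 6 were higher and 2 lower in shcontrol than in control (median 0.07), 5 higher and 7 lower with shMETTL3 (median -0.02), 2 higher and 3 lower with shMETTL14 (median -0.13), and 7 higher and 7 lower between the knockdowns (median 0.01). Of 8 glucose transporters, hexokinases and PFKFB enzymes, 3 were higher and 1 lower in shcontrol, 1 higher and 2 lower with shMETTL3, 1 and 1 with shMETTL14, and 2 and 3 between the knockdowns. Of 14 genes known to respond to hypoxia outside metabolism, 9 were higher and 1 lower in shcontrol (median 0.88), 1 higher and 5 lower with shMETTL3 (median -0.05), 3 higher and 5 lower with shMETTL14 (median -0.40), and 2 higher and 3 lower between the knockdowns (median -0.18).

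LDHA and PGK1 are textbook targets of the hypoxia-inducible factor HIF-1, whose binding core is ACGTG, so the promoters of the 48 genes were searched for these letters on both strands. The sequences are those of RefSeq on GRCh38.p14, from 250 bases before to 50 after the start, found for 46 of the 48 genes and located in GRCh37 by exact match. Of these starts, 27 lay within 100 bases of the start of the counted gene and 3, those of ALDOA, IDH2 and PGAM1, lay 1692 to 11188 bases away, so the window is not always that of the counted transcript. The core occurred in 14 of 46 (30.4%), against 21.4% of all 35116 promoters. It was in 6 of the 10 matched genes higher in shcontrol, 2 of the 6 lower and 6 of the 29 not called, in 6 of the 13 lower with shMETTL3 and 8 of the 32 not called, and between the knockdowns in 7 of 21 higher with shMETTL14 and 7 of 23 not called. The E-box CACGTG, which holds the core on both strands, was in 8.7% against 7.26% of all, the AP-1 site TGACTCA in 4.35% against 4.95%, the TATA box TATAAA in 4.35% against 11.5%, and the GC box GGGCGG in 76.1% against 45%. These are matches of letters, not sites. The 4 promoters below, chosen after the values were seen, belong to genes that rose in shcontrol, 2 with the core and 2 without, and capitals mark the core on either strand. On GRCh37, all on the plus strand, LDHA is at chr11:18415860-18416159 with 5 matches, PGK1 at chrX:77359495-77359794 with 3, TPI1 at chr12:6976445-6976744 with 0 and GK at chrX:30671290-30671589 with 0, and each start lies 1 to 173 bases from that of the counted gene.
LDHA: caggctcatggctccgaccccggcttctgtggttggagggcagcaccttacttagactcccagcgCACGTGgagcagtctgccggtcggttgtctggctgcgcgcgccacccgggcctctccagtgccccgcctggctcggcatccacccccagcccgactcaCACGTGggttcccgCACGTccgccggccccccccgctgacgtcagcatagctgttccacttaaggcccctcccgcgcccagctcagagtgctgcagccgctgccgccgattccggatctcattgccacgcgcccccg
PGK1: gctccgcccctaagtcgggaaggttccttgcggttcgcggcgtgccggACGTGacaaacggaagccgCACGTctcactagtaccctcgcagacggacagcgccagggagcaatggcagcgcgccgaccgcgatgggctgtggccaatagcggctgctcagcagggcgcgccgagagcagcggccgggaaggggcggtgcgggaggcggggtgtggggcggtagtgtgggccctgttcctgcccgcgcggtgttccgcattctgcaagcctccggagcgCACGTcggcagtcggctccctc
TPI1: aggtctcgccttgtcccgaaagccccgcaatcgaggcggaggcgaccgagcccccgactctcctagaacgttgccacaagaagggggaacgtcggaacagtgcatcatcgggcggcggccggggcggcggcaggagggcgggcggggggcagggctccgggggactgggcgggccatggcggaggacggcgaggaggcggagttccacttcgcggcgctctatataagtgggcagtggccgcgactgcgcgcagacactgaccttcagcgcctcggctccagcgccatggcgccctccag
GK: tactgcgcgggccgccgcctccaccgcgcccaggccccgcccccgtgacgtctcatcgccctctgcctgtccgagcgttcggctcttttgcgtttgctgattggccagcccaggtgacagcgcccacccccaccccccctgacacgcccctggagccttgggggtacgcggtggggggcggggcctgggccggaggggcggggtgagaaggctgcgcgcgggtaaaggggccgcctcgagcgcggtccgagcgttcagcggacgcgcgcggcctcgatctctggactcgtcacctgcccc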

How the data were processed

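The authors made fastGRO-seq libraries of IMR90 nuclei, 4 groups of 2, described as independent experiments, aligned the reads to hg19 (STAR, per the labels) and deposited raw counts per gene over whole gene bodies, made with HOMER per the file header. Groups came from the sample titles. Here the table of 27945 genes was filtered with filterByExpr (minimum count 10) and scaled by TMM, and the 12844 genes left were tested in 1 quasi-likelihood fit to 8 libraries (edgeR 4.0.16 in R 4.3.3). Calls were made at a Benjamini-Hochberg adjusted p below 0.05. The fit shares its spread over all groups (common biological coefficient of variation 10.6%), although replicates of the groups were not equally alike. The steps were tested on simulated data. The file gives gene lengths, from which RPKM was computed. Reads of the Drosophila spike-in are not used here, and a change shared by all genes is not visible in these values.

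The members and lists were chosen with earlier results of these data known. Genes named with full statistics are up to 5 per direction with the largest changes in each of the first 3 comparisons, and every other called member is named with its value. Alternatives were DESeq2 1.42.0, other scalings, no filter on low counts, only the groups compared, a replicate block, a threshold of 0.01, members overlapping under 5%, and each library left out. An offset for gene length (lowess span 0.3), protein-coding genes alone, and library size without ribosomal RNA rows and no TMM were added after seeing the data. Plots used matplotlib 3.10.9.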

Additional observations from a re-analysis of the deposited data

Results flagged for a closer look

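The difference between the knockdowns, tested directly as shMETTL14 against shMETTL3 in edgeR's quasi-likelihood fit, passed the threshold for 24 of the 47 tested genes, against 35.2% of all genes tested. On the log2 scale the values of glycolysis were 0.85 for GPI, 1.03 for ALDOA, 1.06 for TPI1, 1.17 for GAPDH, 0.85 for PGAM1, 0.83 for ENO1, 1.50 for ENO2 and 0.78 for PKM. Lactate formation and transport gave 0.58 for LDHA, 0.74 for SLC16A3 and -0.66 for SLC16A1. TKT of the pentose phosphate pathway differed by 0.45, and PDHA1 and PC by 0.98 and 1.49. In the TCA cycle the values were 0.79 for CS, 1.13 for IDH3A, 0.67 for OGDH, 0.36 for SUCLG2, 1.32 for SDHA, 1.08 for SDHB and 0.68 for MDH2. GOT1 differed by 1.24, GK by -1.24 and GPD1L by 1.62. The summed share of the fibroblast markers was lower in the shMETTL14 libraries (0.876% and 1.03%) than in the shMETTL3 libraries (1.62% and 1.32%), and its part in these differences was not tested.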

How the results depend on the processing

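When TMM was replaced by library size alone, the median log2 fold change over all genes moved to -0.53 in shcontrol against control, 0.58 with shMETTL3, 0.35 with shMETTL14, -0.25 between the knockdowns, 0.07 for shMETTL3 against control and -0.14 for shMETTL14 against control. Such a scaling moves all genes of a comparison alike, so the members' median relative to all genes is not tested by it. Under this scaling 5 members were higher and 11 lower in shcontrol, against 752 and 5007 of all 12844 genes tested. With shMETTL3, 6 were higher and 2 lower, against 5285 and 353. With shMETTL14, 16 were higher and 1 lower, against 3163 and 710. Between the knockdowns, 14 were higher and 5 lower, against 1177 and 3486. The same uniform shift reversed GAPDH in shcontrol (-0.10) and ENO1 (0.0375), LDHA (0.21) and PGD (0.10) with shMETTL3. With library size outside ribosomal RNA and no TMM, 20 were lower with shMETTL3, 8 higher with shMETTL14, and 3 higher and 19 lower with shMETTL3 against control. DESeq2 gave 2 lower in shcontrol, 3 higher and 1 lower with shMETTL14, 6 lower with shMETTL3 against control and 4 lower with shMETTL14 against control. An adjusted p below 0.01 left 3 higher and 1 lower with shMETTL14, 7 lower with shMETTL3 against control and 4 lower with shMETTL14 against control. A fit to only the groups compared gave 8 higher with shMETTL14. The cause of these moves was not tested.

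With 1 library left out at a time, the counts of higher and lower members were 9 to 11 and 2 to 6 in shcontrol, 0 and 8 to 20 with shMETTL3, 0 to 8 and 1 to 6 with shMETTL14, 16 to 22 and 1 to 3 between the knockdowns, 4 to 5 and 6 to 18 for shMETTL3 against control, and 16 to 20 and 4 to 7 for shMETTL14 against control. The members' median with shMETTL14 against shcontrol was 0.07 and became -0.01 without shMETTL14 replicate 1. Of 40 named calls in the first 3 comparisons, 10 were kept in every one of 17 alternatives (GK in all 3 comparisons, ENO2 with shMETTL3, and TPI1, LDHA, SLC16A1, SLC16A3, IDH1 and ME1 in shcontrol), and of 680 values 563 kept their call, 113 lost it and 4 reversed.

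The deviations of same-numbered libraries from their group means correlated at -0.06 to 0.27. With so few libraries per group, this cannot decide whether the replicate numbers pair the libraries. With replicate number as a block, 11 members were higher and 6 lower in shcontrol, 0 and 14 with shMETTL3, 5 and 5 with shMETTL14, 21 and 2 between the knockdowns, 5 and 11 for shMETTL3 against control, and 19 and 7 for shMETTL14 against control. With 2 libraries per group, genes of low counts had wide errors, such as an SE of 0.63 for GPD1L.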
